A study of Mus musculus with 4 samples.

Results

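Transcripts of 7 genes of cholesterol synthesis and of its sterol sensor, *Hmgcs1*, *Idi1*, *Fdps*, *Fdft1*, *Sqle*, *Cyp51* and *Insig1*, were followed in sorted T cells that had or had not switched on an *Il10* reporter. The genes were chosen by name, and all 7 of them were found among the 47643 genes counted. Of these, 6 had at least 10 counts over the 4 libraries and were tested, and *Idi1*, with 9 counts, was not. No gene of cholesterol uptake is among the 7, so uptake genes were taken from a separate list.

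All cells came from the spleens of Tg4 *Nr4a3*-Tocky *Il10*-EGFP mice, killed 24 h after subcutaneous [4Y]-MBP peptide at 4 mg/kg. Tg4 is a transgenic T cell receptor that recognises a myelin basic protein peptide, *Nr4a3*-Tocky drives a fluorescent Timer protein from *Nr4a3* in cells that receive a signal through that receptor, and the EGFP reports transcription of *Il10*. Both sorted populations were CD4+ and Timer+, and each was represented by 2 libraries, labelled Il10-EGFP− or Il10-EGFP+. There was no group without peptide. The series description mentions biological replicate mice but not which libraries share a mouse, and ages are not given in the sources used here. The p-values below measure the spread between these libraries only.

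Cells make cholesterol from acetyl-CoA through mevalonate, the isoprenoid farnesyl pyrophosphate and squalene. When membranes run short of sterol, the transcription factor SREBP2 is cut free from the membrane and switches on most enzymes of the route, whereas INSIG proteins hold SREBP2 back when sterol is plentiful. Activated T cells are known to need this route for membrane growth and for the isoprenoids that anchor small GTPases.

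Each library held between 644679 and 730330 counts of 3′ end reads, so that a single count was worth between 1.36 and 1.58 CPM (counts scaled to library size with TMM factors, the unit of all levels below). In this 3′ method counts do not scale with transcript length, and levels are compared between libraries only. *Il10* itself was counted 0 times in each Il10-EGFP− library, against 29 and 41 counts for Il10-EGFP+. All 8 CD4 T cell markers were detected, with sums of 3156 and 2912 CPM in Il10-EGFP− against 3733 and 3516 CPM in Il10-EGFP+ T cells. *Trac* was the 1 of the 8 that was called, and 5 had an unadjusted p under 0.05 (edgeR). Of all 9608 genes tested, 4.09% were called and 15.5% had an unadjusted p under 0.05 (edgeR). Markers of other cells were present as well. The B cell markers summed to 109.9 and 188.2 CPM in Il10-EGFP− and to 438.9 and 507.8 CPM in Il10-EGFP+ T cells, with 3 of 8 called, while *Cd79a* had 2 counts in Il10-EGFP− replicate 1 and 0 elsewhere. The myeloid markers summed to 66.5 and 105.1 CPM against 332.7 and 137.1 CPM, with 2 of 8 called and *Cd14* at 0 counts in each library. The CD8 and NK cell markers lay between 38.0 and 61.3 CPM with *Ncr1* at 0 counts in each library, 0 of 4 tested called and 1 at an unadjusted p under 0.05 (edgeR). Proliferation markers summed to 2470 and 2409 CPM against 4861 and 4570 CPM, with 7 of 10 called. The part of other cells and of cycling cells in the values below was not tested. In bulk samples, fewer cells of a type and less RNA per cell cannot be told apart.

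The promoters are shown first because SREBP2 acts on them. RefSeq (GRCm38.p6) gave a window from 250 bases before to 50 bases after the transcription start for 4 of the 7 genes, and *Fdps*, *Fdft1* and *Sqle* had no entry. The windows of *Hmgcs1* (chr13:119690101-119690400, plus strand), *Cyp51* (chr5:4104648-4104947, minus strand) and *Insig1* (chr5:28071162-28071461, plus strand) are printed, since the first gene had the smallest p of the 6 tested and the other pair varied most between the Il10-EGFP+ replicates. Each runs 5′ to 3′ on the strand of the gene. Capitals mark matches, on either strand, to the sterol regulatory element TCACCCCAC, to the NF-Y box CCAAT, to the GC box GGGCGG and to the E-box CACGTG, with the reverse complement where the match lies on the other strand.

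Hmgcs1: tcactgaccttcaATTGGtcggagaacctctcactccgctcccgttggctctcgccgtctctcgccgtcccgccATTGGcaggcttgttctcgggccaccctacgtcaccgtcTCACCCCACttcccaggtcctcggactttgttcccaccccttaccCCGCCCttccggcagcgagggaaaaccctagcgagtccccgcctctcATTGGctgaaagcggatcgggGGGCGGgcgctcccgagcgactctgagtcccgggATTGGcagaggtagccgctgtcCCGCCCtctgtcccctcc
Cyp51: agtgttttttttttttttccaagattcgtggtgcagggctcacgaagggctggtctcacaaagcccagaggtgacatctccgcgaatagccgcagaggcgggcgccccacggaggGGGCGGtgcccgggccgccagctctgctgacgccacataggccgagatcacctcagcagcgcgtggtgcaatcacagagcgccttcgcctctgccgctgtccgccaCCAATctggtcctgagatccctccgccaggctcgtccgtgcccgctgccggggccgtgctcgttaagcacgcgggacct
Insig1: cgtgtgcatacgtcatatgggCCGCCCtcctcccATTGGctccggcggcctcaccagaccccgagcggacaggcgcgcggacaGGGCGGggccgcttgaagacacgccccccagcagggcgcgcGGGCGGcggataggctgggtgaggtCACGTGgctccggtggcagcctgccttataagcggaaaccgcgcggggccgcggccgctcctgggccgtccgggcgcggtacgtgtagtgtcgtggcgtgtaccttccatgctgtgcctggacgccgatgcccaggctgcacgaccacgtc

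The *Hmgcs1* window held the sterol regulatory element, 137 bases before the start, a word found in 0.551% of 32851 mouse promoter windows of this length. With any base at the fifth position (TCACNCCAC, which includes the first word), the share was 1.24%, and still 1 of the 4 windows had a match. All 4 windows, that of *Idi1* included, held an NF-Y box and a GC box, which 37.4% and 35.7% of the windows held. Among the other enzymes of sterol synthesis, 14 genes had an entry, and a gene was counted if any of its windows held a match. An NF-Y box was found for 12 of the 14, a GC box for 13 and the sterol regulatory element for 0. Counted the same way, the shares of 27025 genes were 41.1%, 38.2% and 0.614%. The E-box, found in 7.15% of windows, stood in that of *Insig1*, 101 bases before the start. A match is a run of letters, not evidence that a factor bound there, and a window without one says nothing of the factor.

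**Figure D1:**
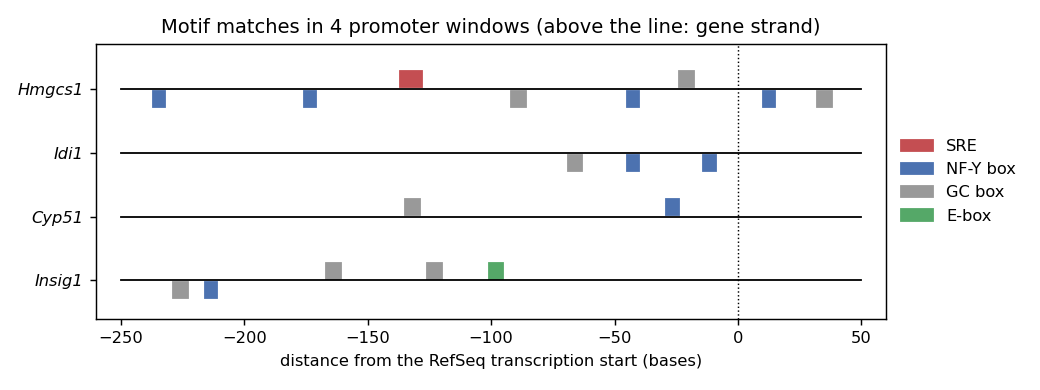
Positions of motif matches in the promoter windows of 4 genes (x axis, bases from the RefSeq transcription start; boxes above a line lie on the strand of the gene and boxes below it on the other strand). The sterol regulatory element (red) is seen in *Hmgcs1* alone, while every one of the 4 windows has an NF-Y box (blue) and a GC box (grey).

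Between the populations, the levels of *Hmgcs1* and *Fdps* were higher in both Il10-EGFP+ libraries than in either Il10-EGFP− library, but neither gene passed the test across all genes. None of the 6 tested genes did, against 4.09% of the 9608 genes tested, 2.35% higher and 1.74% lower in Il10-EGFP+ T cells. With edgeR's quasi-likelihood test at a Benjamini-Hochberg adjusted p under 0.05 the count was 0 of 6, and 2 of 6 had an unadjusted p under 0.05, as 15.5% of all tested genes did. Limma voom and limma on the rlog values also called 0 of the 6, where they called 4.25% and 2.06% of all tested genes. DESeq2's Wald test called 112 genes among the 5324 to which it gave an adjusted p (1.17% of all 9608). It called 0 of the 4 tested here that had an adjusted p, and gave none to *Fdps* and *Fdft1*. The count stayed 0 in edgeR with bias-adjusted deviances (4.08% of all genes called), with a replicate block (5.83%) and when every gene with a count was tested (2.61%). It was also 0 with a library left out, where 2.46% and 2.98% of all genes were called without Il10-EGFP− replicates 1 and 2, and 2.96% and 2.32% without Il10-EGFP+ replicates 1 and 2. The populations did not overlap, with the Il10-EGFP+ libraries higher, for 2 of the 6 genes (22.3% of all tested genes), and did not overlap with them lower for 1 of the 6 (22.3%). The median log2 fold change of the 6 genes, Il10-EGFP+ over Il10-EGFP−, was 0.43, and it was 2.5e-05 over all tested genes.

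*Hmgcs1* (ENSMUSG00000093930; GRCm38, chr13:119690379-119708260, plus strand) encodes the cytosolic HMG-CoA synthase, an early enzyme of the mevalonate route. Its counts were 37 and 33 in Il10-EGFP− against 53 and 55 in Il10-EGFP+ T cells. In normalized terms its level was 50.2 and 48.1 CPM against 84.0 and 79.3 CPM. The replicates of each population lay close together, and the populations did not overlap. The means were 49.2 ± 1.47 CPM and 81.7 ± 3.28 CPM (SD, n = 2 libraries each). The log2 fold change was 0.73 (standard error, SE, 0.27, 95% interval 0.18 to 1.27), with an unadjusted p of 0.0098 and an adjusted p of 0.127 (edgeR). By counting error alone, the ratio of the summed counts was 1.66 (95% Clopper-Pearson interval 1.22 to 2.27). With any 1 library left out the log2 fold change stayed between 0.69 and 0.77.

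*Fdps* (ENSMUSG00000059743; chr3:89093588-89101959, minus strand) encodes farnesyl pyrophosphate synthase, whose product feeds both sterols and prenylated proteins. It had 10 and 12 counts in Il10-EGFP− against 20 and 23 in Il10-EGFP+ T cells. Its level was 13.6 and 17.5 CPM against 31.7 and 33.2 CPM. Again the populations did not overlap. The means were 15.5 ± 2.78 CPM and 32.4 ± 1.05 CPM (SD, n = 2 each). The log2 fold change of 1.06 was the highest of the 6 tested genes (SE 0.45, 95% interval 0.17 to 1.95, unadjusted p = 0.0211 and adjusted p = 0.208, edgeR). This result depended on the filter for low counts. With at least 10 counts required in every library, which left 5737 genes and 5 of the 7, *Fdps* had an adjusted p of 0.0462 and was called, as were 7.46% of those genes, at a log2 fold change of 1.07. Over the 9 alternatives that kept all libraries and gave an adjusted p, it ran from 0.0462 to 0.285. The end of the *Fdps* transcript shares runs of 50 bases with 8 other annotated genes, among them *Gm43738*, with which it also shares 1124 exonic bases on the same strand. *Gm43738*, *Gm3571*, *Gm5873* and *Gm8163* had 0 counts in each library, but reads that match several places may have been lost from *Fdps*.

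**Figure D2:**
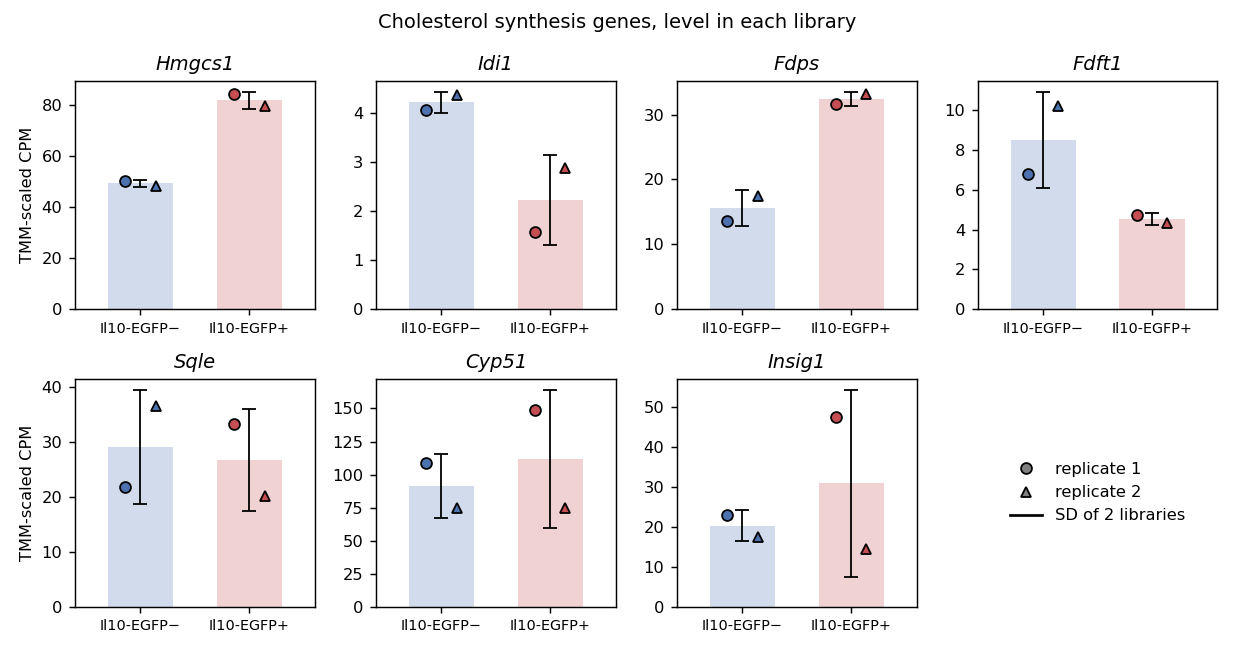
Level of each of the 7 genes by library, in TMM-scaled CPM on a linear axis that starts at 0 and differs between panels (circles replicate 1, triangles replicate 2, bars the mean and error bars the SD of 2 libraries). The Il10-EGFP+ libraries of *Hmgcs1* (84.0 and 79.3 CPM) and *Fdps* (31.7 and 33.2 CPM) lie above both Il10-EGFP− libraries, while those of *Cyp51* and *Insig1* lie far apart from each other.

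For the enzymes that commit farnesyl pyrophosphate to sterols, *Fdft1* and *Sqle*, the log2 fold changes were below 0. Their 95% intervals overlapped those of *Hmgcs1* and *Fdps*. *Fdft1* (ENSMUSG00000021273; chr14:63145150-63179578, minus strand), which encodes squalene synthase, had 5 and 7 counts in Il10-EGFP− against 3 counts in each Il10-EGFP+ library. This was 6.79 and 10.2 CPM against 4.75 and 4.33 CPM. The Il10-EGFP+ libraries were lower without overlap, but they stood at the floor of 3 counts. Its log2 fold change was -0.87 with a 95% interval of -2.64 to 0.89 (adjusted p = 0.726, edgeR), so that neither a fall nor a rise of 1.5-fold could be told from no difference at this depth. The last 774 bases of *Fdft1* overlap exons of *Ctsb* on the other strand. *Ctsb*, which encodes the protease cathepsin B, had 139 and 121 counts against 207 and 204, and the strand setting of the counting is not given in the sources used here.

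*Sqle* (ENSMUSG00000022351; chr15:59315077-59331192, plus strand) encodes squalene epoxidase, a rate-limiting step of the late route. It had 16 and 25 counts in Il10-EGFP− against 21 and 14 in Il10-EGFP+ T cells. The levels were 21.7 and 36.5 CPM against 33.3 and 20.2 CPM, so that the populations overlapped and their replicates differed in opposite order. This gave a log2 fold change of -0.12 (SE 0.41, 95% interval -0.95 to 0.71, adjusted p = 0.940, edgeR). Leaving out Il10-EGFP− replicate 2 gave 0.29 and leaving out Il10-EGFP+ replicate 2 gave 0.20, so that it has no settled direction.

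*Idi1* (ENSMUSG00000058258; chr13:8885501-8892451, plus strand), which encodes the isomerase that makes the starter unit of isoprenoids, had 3 counts per Il10-EGFP− library against 1 and 2 in Il10-EGFP+ T cells. All 4 values lay at or under the floor of 3 counts, which is between 4.07 and 4.75 CPM, and no fold is given. Its transcript end shares runs of 50 bases with 4 other annotated genes, of which *Gm13502*, *Gm35570* and *Gm7654* had 0 counts.

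*Cyp51* and *Insig1* had the widest ratios between the Il10-EGFP+ replicates. *Cyp51* (ENSMUSG00000001467; chr5:4081145-4104746, minus strand) encodes lanosterol 14-alpha demethylase, which acts after the sterol ring has closed. It had 80 and 51 counts in Il10-EGFP− against 94 and 52 in Il10-EGFP+ T cells. The levels were 108.6 and 74.4 CPM against 148.9 and 75.0 CPM. Replicate 1 was the higher library in each population, and the populations overlapped. The log2 fold change between the populations was 0.27 (SE 0.25, 95% interval -0.22 to 0.77, adjusted p = 0.677, edgeR). Without Il10-EGFP+ replicate 1 it was -0.29, while leaving out Il10-EGFP+ replicate 2 gave 0.69. The last 166 bases of *Cyp51* overlap *Akap9* on the other strand, which had 66 and 56 counts against 62 and 45.

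*Insig1* (ENSMUSG00000045294; chr5:28071363-28078662, plus strand) encodes the sterol-sensing anchor of SREBP2 and is itself a target of that factor. It had 17 and 12 counts in Il10-EGFP− against 30 and 10 in Il10-EGFP+ T cells. The levels were 23.1 and 17.5 CPM against 47.5 and 14.4 CPM, so that the Il10-EGFP+ libraries held both the highest and the lowest value. Its log2 fold change was 0.58 (SE 0.46, 95% interval -0.33 to 1.49, adjusted p = 0.609, edgeR). Leaving out Il10-EGFP+ replicate 1 gave -0.49, and leaving out its replicate 2 gave 1.21.

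The ratios between replicates are given as a description, with intervals for counting error only. Between the Il10-EGFP+ libraries, replicate 1 over replicate 2 gave a ratio of 1.99 for *Cyp51* (95% Clopper-Pearson interval 1.40 to 2.84) and of 3.29 for *Insig1* (1.57 to 7.56). Between the Il10-EGFP− libraries the ratio was 1.46 for *Cyp51* (1.01 to 2.12) and 1.32 for *Insig1* (0.593 to 3.02). *Hmgcs1*, in contrast, had ratios of 1.06 (0.712 to 1.57) and 1.04 (0.635 to 1.72). When the replicate number was tested in place of the population, a test chosen after the data were seen, edgeR called 4 of 9608 genes (0.0416%) and 0 of the 6, with *Cyp51* at a log2 difference of -0.77 (replicate 2 minus replicate 1, adjusted p = 0.331) and *Insig1* at -1.09 (adjusted p = 0.765). Both genes had an unadjusted p under 0.05 there (0.000517 and 0.0167). Of the 21 tested genes of sterol synthesis and *Insig1*, replicate 1 was the higher library in both populations for 9 (42.9%, against 25.8% of all tested genes) and the lower for 5 (23.8%, against 26.2%).

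**Figure D3:**
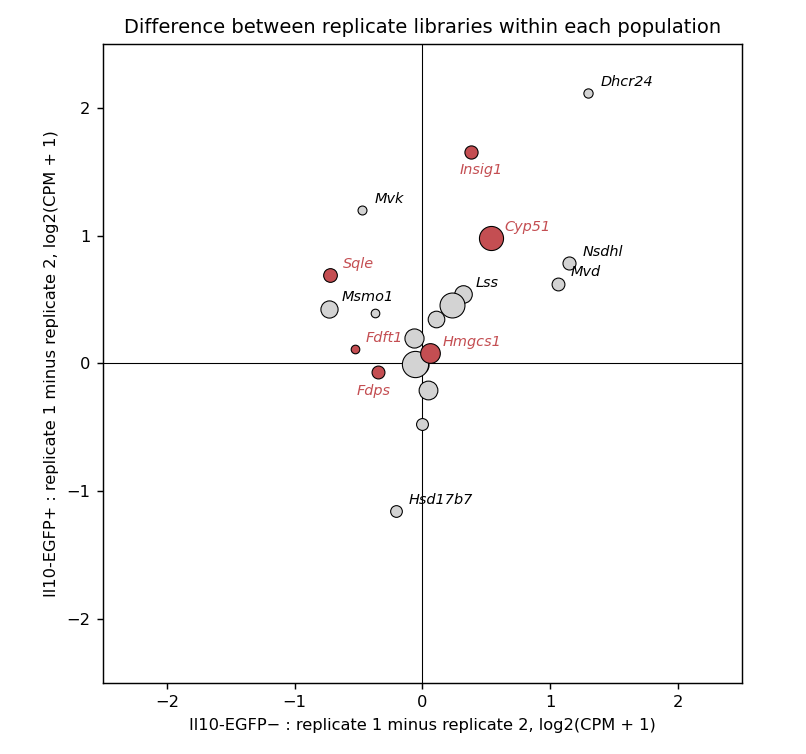
Difference between replicate 1 and replicate 2 within the Il10-EGFP− (x axis) and Il10-EGFP+ (y axis) libraries, on the scale of log2(CPM + 1), for 21 tested genes of sterol synthesis and *Insig1* (red, 6 of the 7 genes; grey, other enzymes; the area of a point grows with its counts). *Cyp51* and *Insig1* lie in the upper right, where replicate 1 is the higher library in both populations, and *Hmgcs1* lies near the origin.

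Il10-EGFP+ replicate 1 held the highest sum. The 7 genes together reached 228.0 and 208.6 CPM in the Il10-EGFP− libraries and 351.8 and 229.4 CPM in the Il10-EGFP+ libraries. Between the Il10-EGFP+ libraries, *Cyp51* had 148.9 and 75.0 CPM, *Insig1* 47.5 and 14.4 CPM and *Sqle* 33.3 and 20.2 CPM. *Hmgcs1* (84.0 and 79.3 CPM) and *Fdps* (31.7 and 33.2 CPM) differed little there. The sum contains the *Cyp51* and *Insig1* values already described and is no separate observation. Without Il10-EGFP+ replicate 1, the median log2 fold change of the tested genes went from 0.43 to -0.39, and with replicate 2 left out instead it was 0.73. The value of -0.39 lay between those of *Insig1* (-0.49) and *Cyp51* (-0.29), the genes that reversed. Il10-EGFP+ replicate 1 also held the highest sum of myeloid markers, 332.7 CPM, and their part was not tested. In Il10-EGFP+ replicate 2 that sum was 137.1 CPM, also above both Il10-EGFP− libraries (66.5 and 105.1 CPM). The summed proliferation markers, like *Hmgcs1* and *Fdps*, were higher in both Il10-EGFP+ libraries. Of the 10 markers, 9 were higher without overlap, against 22.3% of all tested genes. The summed B cell markers were higher in both libraries as well. The part of cycling cells and of B cells was not tested either.

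On the rlog scale, a log2 scale in which the authors drew low counts toward the mean of each gene, the mean differences were smaller. They were 0.23 for *Hmgcs1*, 0.15 for *Fdps*, 0.11 for *Cyp51* and 0.086 for *Insig1*. *Sqle* had -0.02 and *Fdft1* -0.04. The signs were those of the counts for all 6 genes, and *Idi1* was not in that table.

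The genes around these 7 were taken from 6 lists of 77 further genes, of which 65 were tested. None passed the test in either direction by edgeR, limma voom or limma on the rlog values, nor by DESeq2 among the 35 to which it gave an adjusted p. An unadjusted p under 0.05 was found for 8 of the 65 (12.3%, against 15.5% of all tested genes, edgeR). Their median log2 fold change was 0.09.

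Among the 15 tested other enzymes of sterol synthesis, 11 had a log2 fold change above 0 and 4 below, with a median of 0.15. The populations did not overlap for 4 higher and 4 lower (26.7% each, against 22.3% of all tested genes in each direction).

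For control by SREBP, 3 of 12 genes had a log2 fold change above 0 and 9 below, with a median of -0.27. *Srebf2*, the gene of SREBP2, had 59 and 49 counts in Il10-EGFP− against 84 and 71 in Il10-EGFP+ T cells, or 80.1 and 71.5 CPM against 133.1 and 102.4 CPM. The populations did not overlap, and the log2 fold change was 0.63 (SE 0.23, 95% interval 0.17 to 1.09, unadjusted p = 0.0087 and adjusted p = 0.117, edgeR). *Srebf1*, which encodes the form that favours fatty acid synthesis, had 14 and 7 counts against 5 and 8, with a log2 fold change of -0.58 (adjusted p = 0.749). *Insig2*, the paralogue of *Insig1*, had 13 and 22 counts against 13 and 4, with a log2 fold change of -0.93 (SE 0.53, adjusted p = 0.417, edgeR). Here too the populations overlapped. *Mbtps2*, the gene of the site-2 protease that frees SREBP from the membrane, had 14 and 19 counts against 5 and 10 and did not overlap, at a log2 fold change of -1.03 (adjusted p = 0.345).

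**Figure D4:**
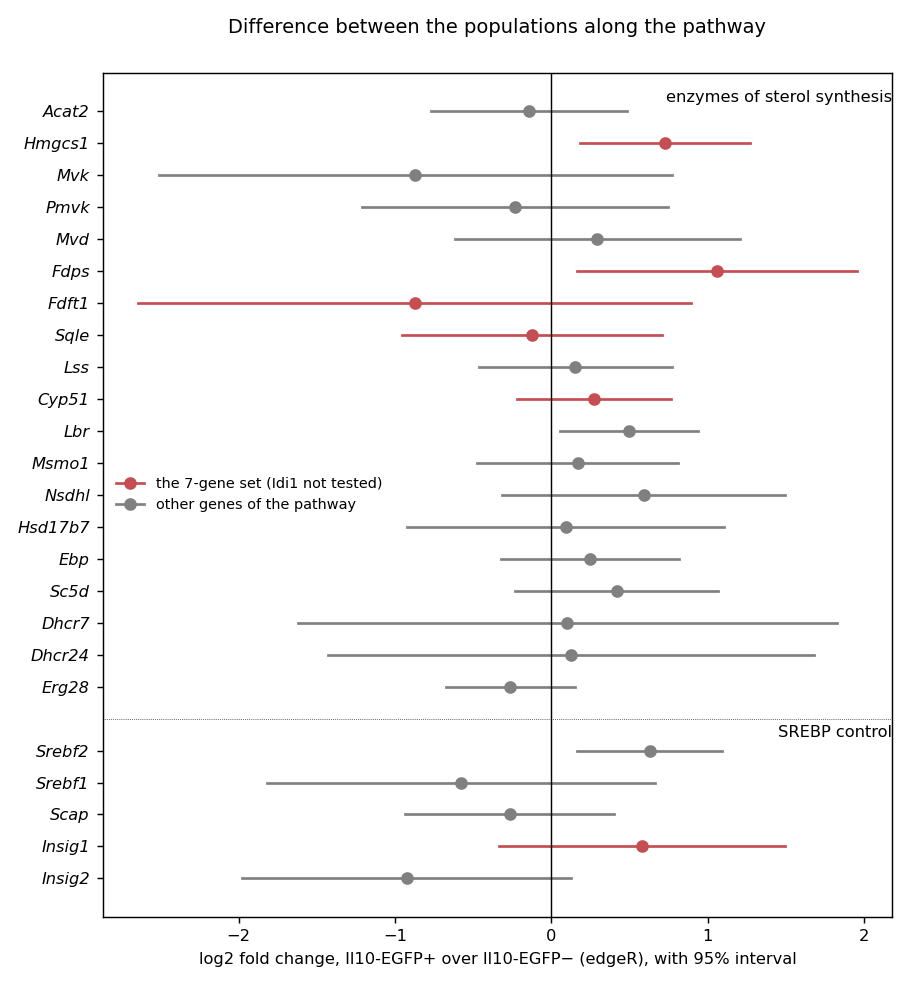
Log2 fold change of Il10-EGFP+ over Il10-EGFP− T cells (x axis, points) with its 95% interval (lines, edgeR) for 19 tested enzymes in the order of the route, from top to bottom, and for 5 genes of SREBP control (red, 6 of the 7 genes; grey, others). The intervals of *Hmgcs1* (0.18 to 1.27), *Fdps* (0.17 to 1.95) and *Srebf2* (0.17 to 1.09) lie above 0 before adjustment for the number of genes tested, as does that of *Lbr*, while *Fdft1* has the widest.

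For uptake and transport of cholesterol, 9 of 12 tested genes had a log2 fold change above 0 and 3 below, with a median of 0.40. The populations did not overlap, with Il10-EGFP+ higher, for 6 of the 12 and lower for 0, against 22.3% of all tested genes in each direction. *Npc1*, whose product exports cholesterol from lysosomes, had 7 and 10 counts against 19 and 12 and a log2 fold change of 0.96 (adjusted p = 0.384). *Lipa*, which encodes the lysosomal lipase that frees cholesterol from its esters, had 24 and 17 counts against 31 and 32 and a log2 fold change of 0.72 (adjusted p = 0.300). *Stard4*, the gene of a sterol carrier, had 27 and 28 counts against 31 and 46 and a log2 fold change of 0.58 (adjusted p = 0.382). None of these 3 genes passed the test. Myeloid cells also express *Lipa* and *Npc1*, and the myeloid markers were higher in the Il10-EGFP+ libraries (332.7 and 137.1 CPM against 66.5 and 105.1 CPM). Their part was not tested.

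The other branches held no gene past the threshold. In the isoprenoid branch, which uses the product of *Fdps* for prenyl groups, dolichol and coenzyme Q, 2 of 11 genes had a log2 fold change above 0 and 9 below, with a median of -0.35. The populations did not overlap, with Il10-EGFP+ lower, for 5 of the 11 (45.5%) and higher for 0, against 22.3% of all tested genes in each direction. An unadjusted p under 0.05 was found for 2 of the 11, against 15.5% of all tested genes (edgeR). *Pdss2*, which encodes a subunit of the synthase of the coenzyme Q tail, had 30 and 34 counts in Il10-EGFP− against 20 and 15 in Il10-EGFP+ T cells, at a log2 fold change of -0.76 (adjusted p = 0.289). Of the genes of efflux, esters and the sterol receptor LXR, 6 of 12 were tested, 3 above and 3 below 0. An unadjusted p under 0.05 was found for 2 of the 6, 1 in each direction, against 15.5% of all tested genes (edgeR). The higher was *Apoe*, with few counts, 0 and 1 in Il10-EGFP− against 7 and 3 in Il10-EGFP+ T cells (log2 fold change 3.14, adjusted p = 0.218, edgeR). *Nr1h2*, the gene of LXR-beta, had 21 counts per Il10-EGFP− library against 7 and 11 in Il10-EGFP+ T cells, at a log2 fold change of -1.11 (SE 0.47, unadjusted p = 0.0216 and adjusted p = 0.210, edgeR). *Abca1*, a sterol exporter that LXR switches on, had 1 count or none in each library and was not tested. In fatty acid synthesis, 5 of 9 tested genes were above 0 and 4 below, with a median of 0.10, and 0 had an unadjusted p under 0.05 (edgeR).

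Among the 5 genes whose profile over the 4 libraries lay nearest to the mean profile of the tested members were *Scand1*, *Stk4*, *Snrnp25* and *Zc3hav1*, out of 2608 genes whose mean was at least 50 counts. Their distances, the Euclidean distance of centred log2 CPM over the 4 libraries, ran from 0.07 to 0.09, against a median of 0.59 over those genes. *Stk4* had 156 and 144 counts in Il10-EGFP− against 191 and 148 in Il10-EGFP+ T cells, with a single high library as in the sum of the 7 genes. That likeness follows from picking genes by this profile. None of the 5 passed the test between the populations (adjusted p from 0.456 to 0.716, edgeR), which the same choice makes likely.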

How the data were processed

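RNA of the 4 libraries (5 ng each) was sequenced with the QuantSeq 3′ FWD kit. The submitters' notes name STAR 2.5.2a, HTSeq 0.6.0 and GRCm38, and from these the authors deposited whole read counts for each Ensembl gene, without normalization, and rlog values on a log2 scale. According to the paper's methods, molecular identifiers served to assess duplicate reads and to limit bias from amplification. The strand setting, and whether the counts used here are those left after collapsing by identifier, are not stated outright in the sources. A replicate pair that the authors removed as an outlier was not analysed here. Library totals ran from 644679 to 730330 counts.

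The 9608 genes whose counts summed to 10 or more were fitted in edgeR 4.0.16 (R 4.3.3, TMM, quasi-likelihood F-test, Benjamini-Hochberg, threshold 0.05). Standard errors came from the log2 fold change and F, and intervals of ratios of counts (Clopper-Pearson, 95%) cover counting error only, as does the floor of 3 counts. The alternatives used DESeq2 1.42.0 and limma 3.58.1. The fits were also run on simulated data, the outcome of which is not reported here. Symbols were missing for 419 of 47643 identifiers. Coordinates came from GENCODE M21 (GRCm38). Members and lists were chosen with earlier results of these data known. Named besides the 7 genes were *Srebf1*, *Srebf2*, *Insig2* and *Abca1*, any pathway gene past the threshold, in each direction the 3 pathway genes with the largest change (mean of at least 10 counts, no overlap), and the 5 nearest profiles. Genes that this rule also names but the text does not are not reported here. *Lbr*, *Apoe* and the overlapping genes were named after their values were seen.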

Additional observations from a re-analysis of the deposited data

How the results depend on the processing

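No member was called under 9 of the 10 alternatives that kept all libraries, and 1, *Fdps* (log2 fold change 1.07, adjusted p = 0.0462, edgeR), was called with at least 10 counts in every library, where fewer genes were tested. DESeq2 gave no adjusted p for *Fdps* and *Fdft1*, so that it judged 4 of the members. The median log2 fold change over the members was 0.10 with limma on the rlog values, by the construction of that scale. It was 0.27 with limma voom, 0.27 when every gene with a count was tested and 0.58 with at least 10 counts in every library. With each library left out in turn it ran from -0.39 (without Il10-EGFP+ replicate 1) to 0.73 (without Il10-EGFP+ replicate 2), and no member was called. The log2 fold change then ran from -0.29 to 0.69 for *Cyp51* and from -0.49 to 1.21 for *Insig1*, each reversed without Il10-EGFP+ replicate 1. That of *Sqle* ran from -0.52 to 0.29. It was above 0 without Il10-EGFP− replicate 2 (0.29) or Il10-EGFP+ replicate 2 (0.20). In these fits the lone library is assumed to vary like the other population. The causes were not tested. Under the 10 alternatives with all libraries, the adjusted p ran from 0.0804 to 0.615 for *Hmgcs1* and from 0.0743 to 0.587 for *Srebf2*, and no pathway gene outside the members was called.

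The libraries share replicate numbers. The methods speak of a replicate pair and of replicate mice, but do not state that libraries with the same number come from the same mouse. Across 4965 genes, libraries with the same number deviated from their population means with a correlation of 0.035. Counting error lowers such a correlation, so it cannot tell whether the libraries are pairs. The main fit used no replicate block. With a replicate block in edgeR, 0 members were called, and the median over the members was 0.40. Of all genes, 560 (5.83%) were called with the block, against 393 (4.09%) in the main fit.

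With few counts a gene and 2 libraries a population, the 95% intervals of most members were wide (-0.33 to 1.49 for *Insig1*), and they cannot tell a sizeable difference from none.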
